A study of Mus musculus with 6 samples.

Results

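The genes described here are 10 members of a list drawn from the NRF2 antioxidant programme and from ferroptosis. They are Nfe2l2, Nqo1, Gclm, Gclc, Slc7a11, Srxn1, Txnrd1, Gpx4, Prdx1 and Acsl4, of which Acsl4 promotes ferroptosis. The members were taken by symbol from the 19349 genes of the count tables, and all 10 were present in each of the 6 tables. Transcripts were counted as unique molecular identifiers (UMIs, 1 per captured RNA molecule) in single liver non-parenchymal cells, the liver cells other than hepatocytes, on the 10x Genomics droplet platform. Male C57BL/6J mice bought at 8 weeks of age were fed a high-fat diet for 24 weeks to model nonalcoholic steatohepatitis (NASH). In the last 8 weeks the control group received vehicle (DMSO) into the stomach and the treated group received 10 mg/kg of ginkgetin daily, which is a biflavone made by Ginkgo. There were 3 libraries per group, every mouse of both groups was on the high-fat diet, and no chow-fed liver was analysed here. Whether a library came from 1 animal or from pooled animals was not given in the sources used here, so p-values measure the spread between libraries.

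NRF2, the protein of Nfe2l2, is a transcription factor that is degraded with the help of KEAP1 until oxidants or electrophiles stop this, after which it enters the nucleus and binds antioxidant response elements with a small MAF partner. Its targets make glutathione, reduce thioredoxin and peroxiredoxins and detoxify quinones. Ferroptosis is a cell death by iron-dependent peroxidation of membrane lipids, which GPX4 opposes with glutathione and which ACSL4 favours by loading polyunsaturated fatty acids into phospholipids. Kupffer cells, the resident macrophages of the liver, take up red cells and their iron.

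The core letters of an antioxidant response element, TGACNNNGC, were searched on both strands of the RefSeq promoter windows (GRCm38.p6, 250 bases before to 50 after a start site). They were found in 12.4% of 32851 windows, or in 14.0% of 27025 genes, and in 5 of the 9 members with a window. The 5 matches are shown because they belong to genes whose counts are described below. The match is in capitals with 10 bases on each side, each is written 5′ to 3′ on the strand that carries the letters, and that was the minus strand in every case.
Prdx1, chr4:116685456-116685484: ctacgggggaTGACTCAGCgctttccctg
Gclm, chr3:122245413-122245441: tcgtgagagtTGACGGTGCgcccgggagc
Srxn1, chr2:152105542-152105570: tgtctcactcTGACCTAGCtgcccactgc
Txnrd1, chr10:82859104-82859132: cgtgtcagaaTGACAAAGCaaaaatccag
Nfe2l2, chr2:75704885-75704913: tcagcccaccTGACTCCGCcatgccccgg

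In Prdx1 the match also holds TGACTCA, the letters of an AP-1 motif, which none of the other matches did. For Txnrd1 the letters were in 1 of 3 windows. A match describes letters only, and the windows of Nqo1, Slc7a11, Gpx4 and Acsl4 did not hold them. On GRCm38.p6 the gene Prdx1 spans positions 116685599 to 116700000 of chromosome 4, Srxn1 spans 152105524 to 152111376 of chromosome 2, Acsl4 spans 142317993 to 142390802 of chromosome X and Gpx4 spans 80047166 to 80056439 of chromosome 10. RefSeq lists near copies of Prdx1 and Gpx4 elsewhere in the genome, so their counts are uncertain where reads could have been split between copies.

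Libraries held 3577 to 8119 barcodes and 13128697 to 61796882 UMIs. After filtering, 27544 of 33168 cells remained, with a median of 3912 to 8412 UMIs per cell in the vehicle libraries and 2483 to 6262 in the ginkgetin libraries. The tables of replicate 3 differed from those of replicates 1 and 2 in their barcode set and in some gene symbols. The 16150 genes seen in both sets were therefore used, and values within each set are given where they matter. Cells of 2 libraries shared 0 to 85 barcodes. The cells formed 39 clusters, of which 37 were named by their markers as 10 classes. Macrophage-like cells were divided further into Kupffer-like cells, led by Clec4f, Fcna and Vsig4, and monocyte-derived-like cells, led by genes such as S100a4, Ccr2 and Ly6c2 or by Spp1 and Cx3cr1. Levels are given as CPM, the UMIs of a gene per 1000000 UMIs, summed over the cells of 1 class in 1 library, and are compared between classes or libraries for 1 gene at a time.

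Among the 10 classes, hepatocyte-like cells had the highest mean level of 6 of the members (Nqo1, Gclm, Gclc, Srxn1, Gpx4 and Prdx1), although in these preparations they were only 565 cells with none from ginkgetin replicate 1. The members nevertheless did not share 1 order of classes. By the mean over the libraries of both groups, Nfe2l2 was highest in endothelial-like cells, Slc7a11 and Acsl4 in macrophage-like cells and Txnrd1 in NK cell-like cells. With vehicle alone, Acsl4 had a higher mean in cholangiocyte-like than in macrophage-like cells. The vehicle mean of Txnrd1 was 80.6 CPM in macrophage-like and 79.1 CPM in NK cell-like cells. For most members, neighbours in the order did not differ beyond 1 SD of the libraries. Only 3 steps exceeded it for Gclm, 1 for Srxn1 and 1 for Prdx1, and none did so for the other 7.

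Nfe2l2 transcripts averaged 246 ± 40.2 CPM in endothelial-like cells and 219.8 ± 62.5 in macrophage-like cells (SD, n = 6 libraries). They were lowest in plasma cell-like cells, at 19.0 ± 3.93 CPM. The intermediate classes were cholangiocyte-like (150.3 ± 27.3), stellate-like (114 ± 38.4) and dendritic-like (78.7 ± 29.8) cells, each within the spread of the next.

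The genes of glutathione synthesis had different orders. Gclm, the modifier subunit of glutamate-cysteine ligase, stood at 461 ± 77.7 CPM in hepatocyte-like cells (n = 5 libraries) and 221 ± 35.5 in cholangiocyte-like cells (n = 6), with every other class mean at or below 55.2 CPM. Gclc, the catalytic subunit of the same enzyme, was also highest in hepatocyte-like cells, but from 82.1 to 509 CPM between libraries, and that range overlapped the 35.1 to 115 CPM of its next neighbour, cholangiocyte-like cells. Slc7a11, the cystine importer that supplies cysteine for glutathione, was nearly restricted to 2 classes by level, with 16.5 ± 7.65 CPM in macrophage-like and 9.03 ± 7.11 in dendritic-like cells (n = 6). In the remaining 8 classes its mean was 1.80 CPM or less. B cell-like cells had 0 Slc7a11 UMIs in 2626 cells, which allows up to 0.414 CPM (3 counts over the class, counting error only).

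Within macrophage-like cells, Slc7a11 followed the monocyte-derived-like cells (5.12 to 33.1 CPM) and not the Kupffer-like cells (0 to 4.77 CPM), and the libraries of the 2 did not overlap. A sub-cluster of 58 macrophage-like cells whose leading genes were those of neutrophils, such as S100a8 and Retnlg, had 344 CPM, and with a second sub-cluster of 35 cells led by B cell genes it held between 0% and 46.2% of the macrophage-like Slc7a11 UMIs of a library. Neither sub-cluster was counted as Kupffer-like or monocyte-derived-like. Gclc, Gclm and Slc7a11 were among the variable genes used for clustering, and with all listed genes left out of clustering none of the 100 levels of the 10 classes moved by more than 1 SD. The macrophage sub-classes did not hold up as well. Monocyte-derived-like cells then numbered 2033 in place of 3586 (11 in place of 190 in ginkgetin replicate 2) and unnamed macrophage-like cells 2208 in place of 569. Slc7a11 was then at 3.86 to 42.0 CPM in monocyte-derived-like and 0 to 4.74 CPM in Kupffer-like cells, and the libraries of the 2 overlapped.

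The peroxide-handling genes were broadly present. Prdx1, a peroxiredoxin that reduces hydrogen peroxide, averaged 3059 ± 1142 CPM in hepatocyte-like cells (n = 5 libraries) and 948 ± 331 in macrophage-like cells, down to 156 ± 53.2 in NK cell-like cells (n = 6). Txnrd1, the cytosolic thioredoxin reductase, was highest in NK cell-like cells at 86.2 ± 20.9 CPM, within the spread of macrophage-like cells at 77.5 ± 26.2. Srxn1, sulfiredoxin, which restores overoxidised peroxiredoxins, was highest in hepatocyte-like cells at 42.9 ± 12.8 CPM. Nqo1, a quinone reductase often used as a readout of NRF2, was low in most classes. It reached 10.2 ± 9.52 CPM in hepatocyte-like and 9.11 ± 4.77 in endothelial-like cells, and NK cell-like cells had 0 Nqo1 UMIs in 1195 cells, which allows up to 0.641 CPM.

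**Figure D1:**
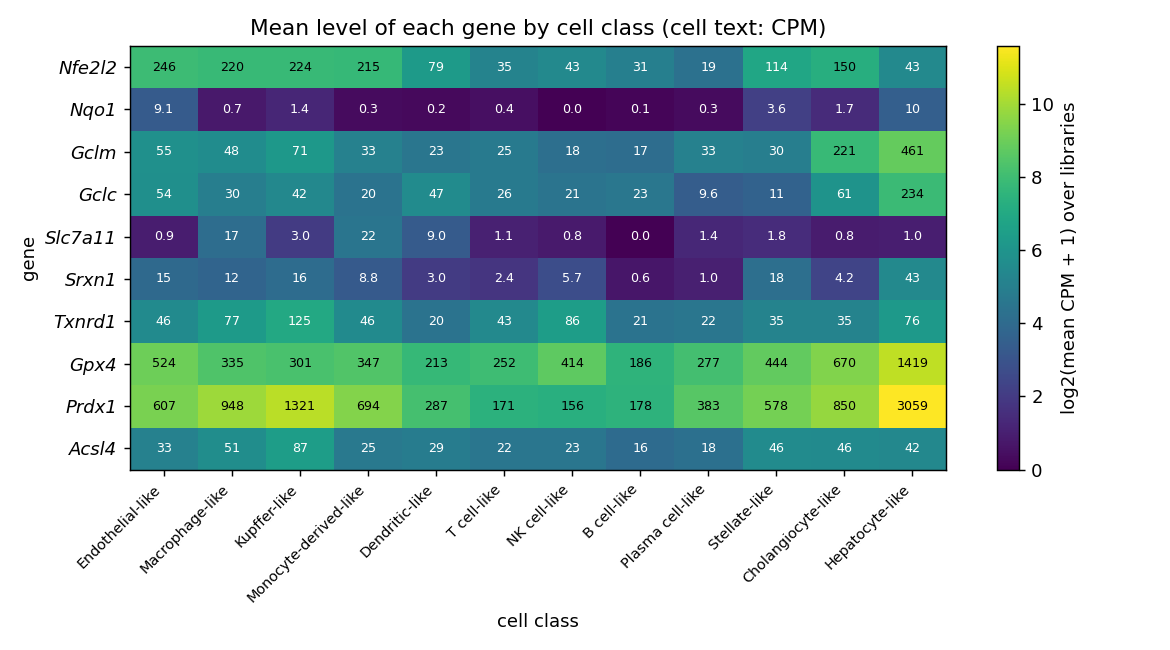
Mean level of each of the 10 genes (rows) in each of the 10 classes and the 2 macrophage sub-classes (columns), in CPM printed in each cell and on a log2(CPM + 1) colour scale, averaged over the libraries with 10 or more cells of the class. Hepatocyte-like cells hold the highest mean of 6 genes, Slc7a11 is at 22 CPM in monocyte-derived-like against 3.0 CPM in Kupffer-like cells, and Nqo1 is above 5 CPM only in hepatocyte-like and endothelial-like cells.

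Over the 10 class means of log2(CPM + 1), the 2 genes most like each member were taken from the 10053 genes with at least 20 CPM in some class, as a description. For Slc7a11 the nearest was Nlrp3 (Pearson r 0.98), and for Prdx1 they were Coq7 and Gm15417 (0.98 and 0.97). Gpx4 was most like Ndufa5 (0.985), and Acsl4 was most like Socs6 and 1500011K16Rik (0.944 and 0.943). For Nfe2l2 the nearest genes were Cyfip1 and Nuak1 (0.967 and 0.966), for Nqo1 Mgll and Fmo1 (0.969 and 0.958), and for Gclm Dbi and Arsg (both 0.969). Gclc was nearest to Pdhx and Gch1 (both 0.957), Srxn1 to Pyroxd2 and Lgals9 (0.917 and 0.914), and Txnrd1 to Tmem37 and Akr1c13 (0.904 and 0.82). The 10 points share libraries and depth.

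The next question was which members differed between vehicle- and ginkgetin-treated mice within a class. Prdx1 was lower and Acsl4 was higher after ginkgetin in macrophage-like and in Kupffer-like cells, and Prdx1 was also lower in monocyte-derived-like cells. None of the other 8 members passed in any class, including Nfe2l2 itself. Over the 10 classes, 2 of 72 tested pairs of member and class passed at an adjusted p under 0.05 in edgeR's quasi-likelihood test, beside 1.62% of all pairs of gene and class. With the replicate number as a block 10 of 72 pairs passed, beside 6.95% of all. Fold changes are log2 differences of ginkgetin from vehicle after TMM scaling. By plain totals the median difference of all genes was 0.261 in macrophage-like, 0.363 in Kupffer-like, 0.144 in endothelial-like and 0.101 in monocyte-derived-like cells. After TMM scaling it was 0.0090, 0.029, -0.0062 and 0.016, and the changes below are relative to it.

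The low-count filter passed 9 members in macrophage-like, monocyte-derived-like and endothelial-like cells, 8 in Kupffer-like, dendritic-like and hepatocyte-like cells, 7 in B cell-like, T cell-like, NK cell-like and cholangiocyte-like cells, 6 in plasma cell-like and 4 in stellate-like cells. Nqo1 passed in endothelial-like cells alone, and Slc7a11 in macrophage-like, monocyte-derived-like and dendritic-like cells.

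Prdx1 stood at 1418, 1091 and 1161 CPM in the vehicle libraries (replicates 1 to 3) of macrophage-like cells and at 643, 558 and 818 CPM in the ginkgetin libraries. Every ginkgetin library was below every vehicle library. The difference was -1.20 ± 0.27 on the log2 scale (SE; edgeR adjusted p 0.0355). In this class 2 of 9 tested members passed, Prdx1 and Acsl4, beside 9.3% of all 10528 genes tested.

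The same gene fell in both macrophage sub-classes. In Kupffer-like cells Prdx1 was at 1879, 1459 and 1435 CPM with vehicle and 1068, 1007 and 1079.8 CPM with ginkgetin. The ginkgetin libraries lay close together and below the vehicle libraries, with a difference of -1.04 ± 0.28 (SE; edgeR adjusted p 0.0413). The pair Prdx1 and Acsl4 again made 2 of 8 tested members, beside 14.7% of all genes in Kupffer-like cells. In monocyte-derived-like cells Prdx1 was at 1032, 824 and 1046 CPM with vehicle and 475, 319 and 466 CPM with ginkgetin. It was the only one of 9 members to pass there, at -1.34 ± 0.29 (SE; edgeR adjusted p 0.0486), beside 2.72% of all genes.

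These calls had little margin. Leaving out any 1 library put Prdx1 above the threshold in macrophage-like and monocyte-derived-like cells (edgeR adjusted p 0.0501 to 0.144 and 0.05003 to 0.187), and in Kupffer-like cells it passed only without vehicle replicate 3 (0.0309 to 0.161), while the direction held in every such fit. When 250 to 5000 UMIs, in place of genes, were asked of each cell, the fold was -0.48 in macrophage-like, -0.67 in Kupffer-like and -1.11 in monocyte-derived-like cells and passed in none of them (edgeR adjusted p 0.407, 0.232 and 0.342). In monocyte-derived-like cells it was also -0.82 (0.590) when the listed genes were left out of clustering, and it did not pass with replicates 1 and 2 alone (0.0846), with all gene symbols kept (0.0751) or with the highest doublet scores left out (0.0501).

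Other measures moved with the groups in these cells. The median kept Kupffer-like cell had 9770, 6896 and 19988 UMIs in the vehicle libraries and 2211, 1939 and 2218 in the ginkgetin libraries, and the groups occupied different sub-clusters, numbered 0 and 7 for vehicle and 8 and 5 for ginkgetin. Sub-clusters 0 and 7 had 4 and 5 of the 7 Kupffer markers detected, and sub-clusters 8 and 5 had all 7. Marco, Cd163 and Timd4 were among the leading genes of 8 and 5 and not of 0 and 7. When each Kupffer-like cell was thinned to 1000 UMIs, the share of cells with a Prdx1 UMI was 75.9%, 62.5% and 64.5% with vehicle and 71.4%, 67.6% and 62.8% with ginkgetin. These shares overlapped, unlike the CPM, and no order is read from them. In monocyte-derived-like cells the thinned shares were 48.4%, 42.0% and 52.5% with vehicle and 38.1%, 28.9% and 32.9% with ginkgetin, without overlap. The 8 endothelial markers, none at 0, summed to 295 to 392 CPM in vehicle and 1167 to 2028 CPM in ginkgetin Kupffer-like cells, and to 262 to 302 and 655 to 1341 CPM in macrophage-like cells. In monocyte-derived-like cells the 10 macrophage markers, none at 0, summed to 7997 to 14374 CPM with vehicle and 4028 to 4771 CPM with ginkgetin. Sub-cluster 11 held 74.2% of the monocyte-derived-like cells of ginkgetin replicate 2 and no vehicle cell. Kupffer-like cells were 771 of 2231, 453 of 1240 and 374 of 1708 macrophage-like cells with vehicle and 91 of 225, 213 of 467 and 511 of 697 with ginkgetin. Monocyte-derived-like cells numbered 1191, 684 and 1258 with vehicle and 105, 190 and 158 with ginkgetin. The part of depth, of these transcripts and of the sub-clusters in the Prdx1 result was not tested. Nor was the part of this mix of sub-classes in any macrophage-like value.

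Prdx1 was also below vehicle in classes where it did not pass. Its fold was under 0 in 10 of 10 classes, and the libraries of the groups did not overlap in 7 of them, beside 9.13% of all pairs of gene and class lying wholly lower. The classes come from the same 6 libraries, so they are not independent observations. The log2 fold lay between -0.84 and -0.92 in B cell-like, T cell-like, NK cell-like, plasma cell-like and dendritic-like cells (edgeR adjusted p 0.166 to 0.273). It was -1.09 in hepatocyte-like, -0.54 in cholangiocyte-like, -0.35 in endothelial-like and -0.089 in stellate-like cells (edgeR adjusted p 0.246, 0.376, 0.671 and 0.978).

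T cell-like cells, for example, held 257, 171 and 233 CPM of Prdx1 with vehicle and 86.3, 119 and 160.1 CPM with ginkgetin. With the replicate block Prdx1 passed in 5 of the 10 classes, which were macrophage-like, B cell-like (edgeR adjusted p 0.0436), NK cell-like (0.0318), plasma cell-like (0.0358) and dendritic-like cells (0.0381). The 10 macrophage markers, none at 0, summed to 240 to 265 CPM in vehicle and 73.8 to 165 CPM in ginkgetin B cell-like cells. That was 0.569% to 1.70% of their sum in macrophage-like cells of the same library, and Prdx1 in B cell-like cells was at 15.1% to 20.3% of its macrophage-like level. The part of macrophage transcripts in the Prdx1 values of other classes was not tested. Within replicates 1 and 2 the log2 ratio of mean CPM was -1.05 in T cell-like cells, and it was -0.54 in replicate 3. In endothelial-like cells these 2 values were -0.41 and 0.44, of opposite sign.

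**Figure D2:**
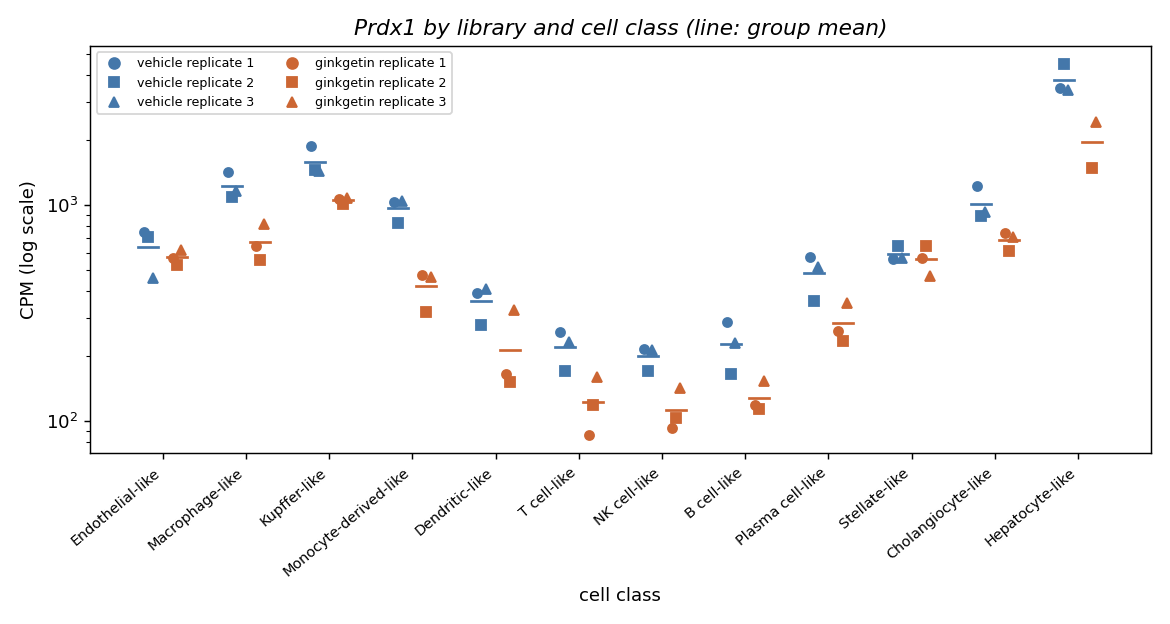
Prdx1 in CPM (log scale) for each library in each class, with vehicle libraries in blue, ginkgetin libraries in orange, symbols for replicates 1 to 3 and a line at each group's mean. The ginkgetin libraries lie below all vehicle libraries in 7 of the 10 classes and in both macrophage sub-classes, and overlap them in endothelial-like, dendritic-like and stellate-like cells.

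Acsl4, the acyl-CoA synthetase that provides the lipid substrate of ferroptosis and the only member that promotes it, went the other way. In Kupffer-like cells it was at 34.0, 37.0 and 57.5 CPM with vehicle and 128, 120.0 and 147 CPM with ginkgetin. All ginkgetin libraries stood far above all vehicle libraries. The difference was 1.20 ± 0.22 on the log2 scale (SE; edgeR adjusted p 0.0119). In macrophage-like cells it was at 25.1, 26.8 and 36.1 CPM against 56.5, 61.0 and 97.6 CPM, a difference of 0.95 ± 0.19 (SE; edgeR adjusted p 0.0249).

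Monocyte-derived-like cells did not show a called difference of Acsl4, with 14.1, 19.3 and 26.5 CPM against 26.5, 24.6 and 37.3 CPM (0.40 ± 0.27, SE; edgeR adjusted p 0.451). Thinned to 1000 UMIs, Kupffer-like cells with an Acsl4 UMI made up 2.98%, 3.97% and 5.65% of the vehicle libraries and 16.5%, 11.7% and 15.6% of the ginkgetin libraries. B cell-like cells, the class with the lowest mean Acsl4 level over the libraries of both groups, had 0.322% to 2.64% over all 6 libraries. Their medians were 1875 to 3705 UMIs before thinning. Endothelial-like cells themselves held 23.7 to 39.7 CPM of Acsl4. The part of endothelial transcripts, depth, sub-clusters and the mix of macrophage sub-classes in the Acsl4 results was not tested. In Kupffer-like cells the call was kept without each ginkgetin library and without vehicle replicate 3, and dropped out when vehicle replicate 1 (edgeR adjusted p 0.0553) or 2 (0.0584) was omitted. In macrophage-like cells the Acsl4 call held without vehicle replicate 3 or ginkgetin replicate 1 and not without each of the other 4 libraries (adjusted p 0.0372 to 0.119 over the 6 fits). With 250 to 5000 UMIs per cell the fold of Acsl4 was 1.62 in macrophage-like and 1.09 in Kupffer-like cells (0.0293 and 0.0603).

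Across the 10 classes, which again share their libraries, the log2 fold of Acsl4 was above 0 in all 10. The groups did not overlap in 5 of them, beside 11.4% of all pairs lying wholly higher. In cholangiocyte-like cells it was at 24.5, 23.8 and 44.9 CPM against 46.6, 60.8 and 76.2 CPM (1.03 ± 0.30, SE; edgeR adjusted p 0.163). With the replicate block that difference passed (edgeR adjusted p 0.0377, beside 3.03% of genes), as did Gclc in the same cells, which went from 43.9, 35.1 and 38.7 CPM to 81.6, 53.4 and 115 CPM (1.04 ± 0.24, SE; edgeR adjusted p 0.0189 with the block and 0.126 without it). The endothelial markers of cholangiocyte-like cells, none at 0, summed to 39.0 to 91.5 CPM with vehicle and 131 to 809 CPM with ginkgetin, and their part was not tested.

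In macrophage-like cells Gclc was wholly higher by CPM in the ginkgetin libraries (31.4, 30.2 and 42.8 against 21.4, 21.1 and 30.03), but relative to the median of all genes the difference was 0.19 ± 0.18 on the log2 scale (SE; edgeR adjusted p 0.519). In endothelial-like cells Gclc was at 37.0, 34.1 and 56.9 CPM with vehicle and 56.5, 61.0 and 75.7 CPM with ginkgetin. Vehicle replicate 3 lay above ginkgetin replicate 1, and the difference was 0.45 ± 0.16 (SE; edgeR adjusted p 0.241).

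**Figure D3:**
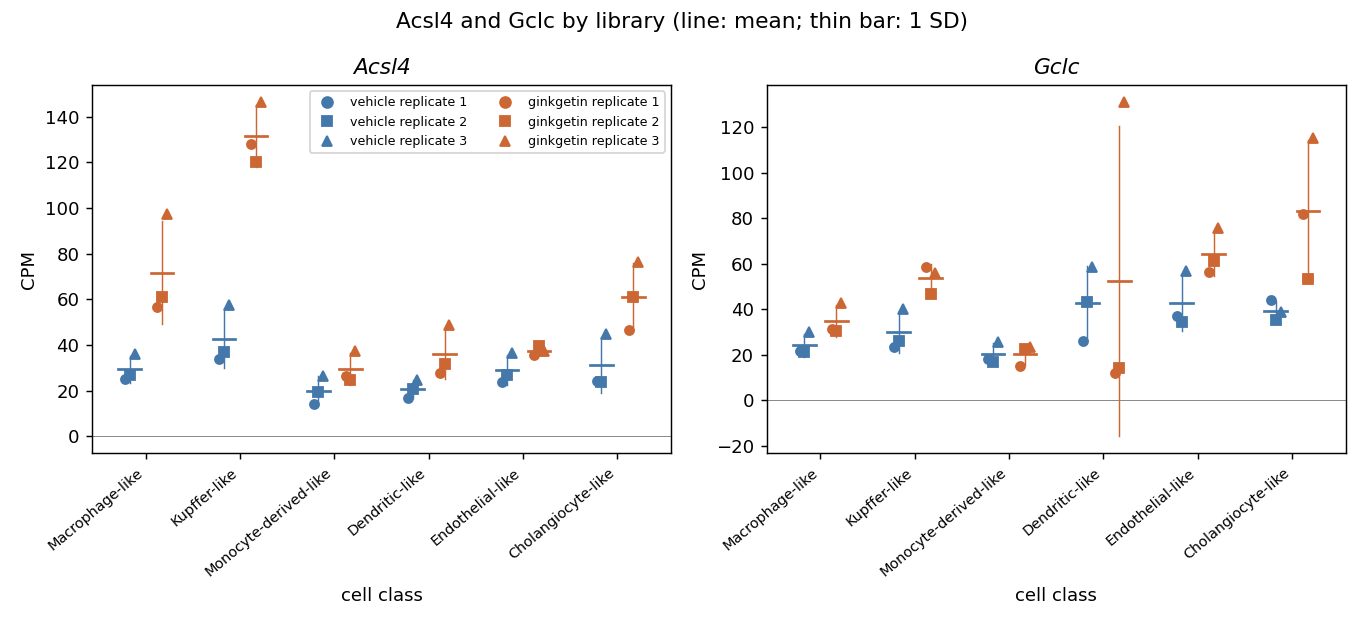
Acsl4 (left) and Gclc (right) in CPM for each library in 6 classes or sub-classes, with group means as lines and 1 SD as thin bars (n = 3 libraries per group). Acsl4 of Kupffer-like cells lies at 34.0 to 57.5 CPM with vehicle and 120.0 to 147 CPM with ginkgetin, and Gclc overlaps between groups in endothelial-like, monocyte-derived-like and dendritic-like cells, where ginkgetin replicate 3 alone is at 131 CPM.

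The other subunit and the importer of the glutathione pathway did not pass. Gclm of monocyte-derived-like cells was at 42.0, 46.1 and 37.6 CPM with vehicle and 19.9, 35.7 and 16.8 CPM with ginkgetin. The groups did not overlap, beside 9.72% of the genes of these cells lying wholly lower. The difference was -0.95 ± 0.35 on the log2 scale (SE; edgeR adjusted p 0.171), and it passed with the replicate block (0.0258). The block raised the calls in these cells from 1 to 4 of 9 members, beside 11.4% of all genes, by adding Gclm, Srxn1 and Txnrd1, each lower. The macrophage markers and the sub-cluster of ginkgetin replicate 2 given above moved with these differences too, and their part was not tested.

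Slc7a11 of dendritic-like cells was at 8.19, 22.6 and 9.65 CPM with vehicle and 3.60, 3.28 and 6.81 CPM with ginkgetin. All ginkgetin libraries were lower, yet the difference did not pass (-1.56 ± 0.49, SE; edgeR adjusted p 0.166). Over the 10 classes 9.13% of all pairs of gene and class lay wholly lower. In dendritic-like cells the 10 macrophage markers summed to 527 to 610.2 CPM with vehicle and 162 to 270.3 CPM with ginkgetin. The 8 endothelial markers summed to 176 to 210.2 CPM with vehicle and 396 to 1011 CPM with ginkgetin. None of these markers was at 0, and their part was not tested. In monocyte-derived-like cells, the class with the most Slc7a11, this gene was at 19.4, 29.98 and 25.1 CPM against 33.1, 17.9 and 5.12 CPM. Ginkgetin replicate 1 was the highest of the 6 libraries and ginkgetin replicate 3 the lowest, on 20 and 7 UMIs, so no common direction appeared (-0.65 ± 0.57, SE; edgeR adjusted p 0.576). In all macrophage-like cells the difference was -0.79 ± 0.62 (SE; edgeR adjusted p 0.450). It became -2.70 and passed with 250 to 5000 UMIs per cell (0.0415), and was 0.095 with replicates 1 and 2 alone (0.894).

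Srxn1 was the only member to pass the test of whether the group difference differed between macrophage-like and endothelial-like cells. Macrophage-like cells held 14.2, 13.2 and 19.3 CPM with vehicle and 2.09, 7.86 and 16.8 CPM with ginkgetin, the latter from 2, 13 and 55 UMIs. Endothelial-like cells held 10.8, 6.70 and 14.7 CPM with vehicle and 13.2, 15.3 and 26.8 CPM with ginkgetin. In each class the groups overlapped. Endothelial-like cells of the groups lay in different clusters. Cluster 4 held 80.5% and 83.7% of those of vehicle replicates 1 and 2 and cluster 22 held 91.1% of vehicle replicate 3. Cluster 0 held 64.7% and 64.1% of ginkgetin replicates 1 and 2 and cluster 8 held 85.3% of ginkgetin replicate 3. The macrophage markers of endothelial-like cells, none at 0, summed to 209.8 to 379 CPM with vehicle and 63.0 to 171 CPM with ginkgetin. The part of these clusters and transcripts in any endothelial-like value was not tested.

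By itself neither difference passed, at -1.04 ± 0.40 in macrophage-like and 0.59 ± 0.28 in endothelial-like cells (SE; edgeR adjusted p 0.135 and 0.387). The test of the difference between the 2, with the library as a block, gave -1.65 ± 0.33 on the log2 scale (SE; edgeR adjusted p 0.0114). Srxn1 was 1 of 10 members to pass this test, beside 6.78% of all 11100 genes. Not passing does not show that a member changed alike in both classes. Srxn1 passed in all 6 fits that left out 1 library (edgeR adjusted p 0.0135 to 0.0463). When 250 to 5000 UMIs were asked of each cell, its difference was -1.89 and just above the threshold (edgeR adjusted p 0.0531). With the replicate block Srxn1 also passed in macrophage-like cells alone (-1.11, edgeR adjusted p 0.0420), and 3 of 9 members then passed there beside 21.7% of all genes.

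Of the macrophage sub-classes, monocyte-derived-like cells separated the groups. Their Srxn1 was at 8.89, 15.9 and 14.7 CPM with vehicle and 3.31, 5.59 and 4.39 CPM with ginkgetin, without overlap, although the ginkgetin values rest on 2, 5 and 6 UMIs (-1.73 ± 0.41, SE; edgeR adjusted p 0.0590, and 0.0138 with the replicate block). In Kupffer-like cells the ginkgetin libraries spanned 0, 10.8 and 25.3 CPM against 21.1, 9.55 and 29.7 CPM with vehicle, and the groups overlapped.

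Txnrd1, its partner in the thioredoxin system, was at 46.0, 45.7 and 75.1 CPM in vehicle and 36.4, 31.3 and 43.2 CPM in ginkgetin monocyte-derived-like cells (-0.74 ± 0.25, SE; edgeR adjusted p 0.141, and 0.0473 with the block). Replicate 3 was the highest of the vehicle and of the ginkgetin libraries there. Dendritic-like cells held 23.0, 21.0 and 34.3 CPM of Txnrd1 with vehicle and 9.91, 14.1 and 19.6 CPM with ginkgetin. The groups did not overlap, and the difference of -0.89 ± 0.26 passed with the block and not without it (SE; edgeR adjusted p 0.0477 and 0.145, beside 5.26% of the genes of this class with the block). Over the 10 classes 9.13% of all pairs of gene and class lay wholly lower. The macrophage and endothelial markers given above for dendritic-like cells moved with this Txnrd1 difference, and their part was not tested. For Prdx1 and Acsl4 the difference between macrophage-like and endothelial-like cells did not pass (edgeR adjusted p 0.105 and 0.0883). With the replicate block Acsl4 did (0.0390, with 2 of 10 members passing beside 9.75% of genes), and it was the only member to pass with 250 to 5000 UMIs per cell (0.0356). Prdx1 passed with replicates 1 and 2 alone (0.0361), in DESeq2 (0.0491) and with no gene filter.

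In endothelial-like cells 0 of 9 tested members passed in edgeR, beside 1.38% of all 10165 genes, 0 passed in DESeq2, beside 4.71%, and 2 had an unadjusted p under 0.05, beside 14.6%. Nqo1 came nearest to a separation there, at 6.69, 6.03 and 3.67 CPM with vehicle and 9.47, 11.9 and 16.9 CPM with ginkgetin. Each ginkgetin library was above each vehicle library, with 9 to 26 UMIs behind the vehicle values and 28 to 144 behind the others. The difference was 1.05 ± 0.35 on the log2 scale (SE; edgeR adjusted p 0.228). Without overlap, 12.2% of the genes of this class lay higher in ginkgetin.

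**Figure D4:**
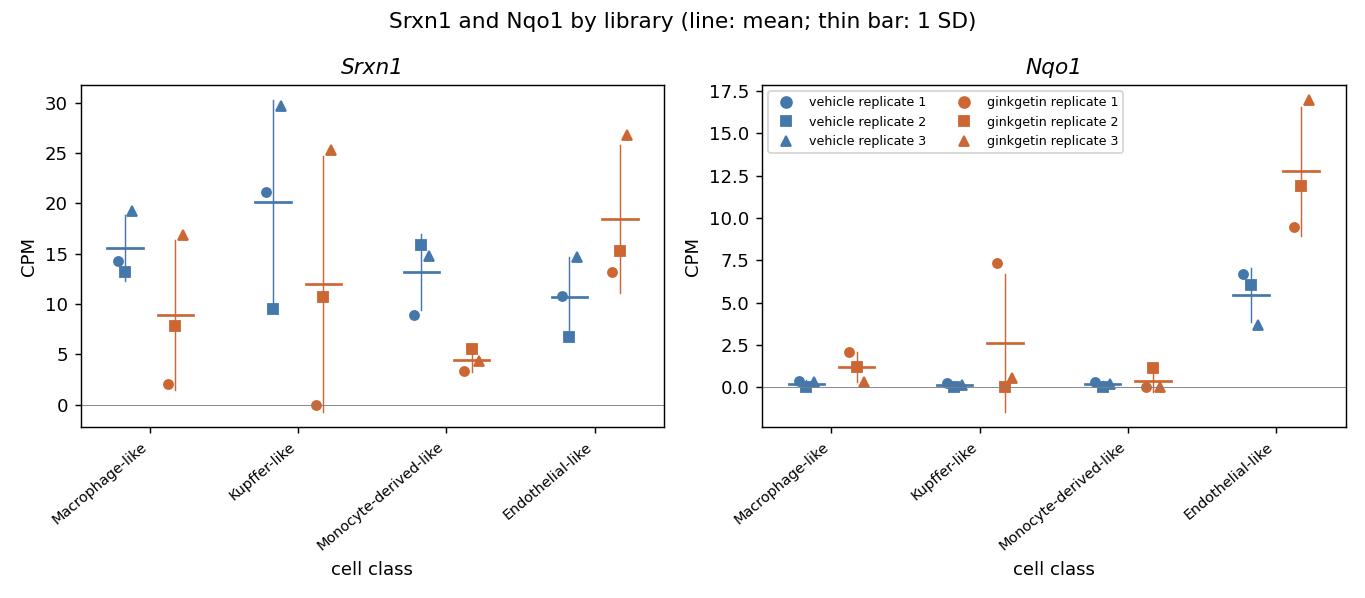
Srxn1 (left) and Nqo1 (right) in CPM for each library in macrophage-like cells, their 2 sub-classes and endothelial-like cells, with group means as lines and 1 SD as thin bars (n = 3 libraries per group). Srxn1 of monocyte-derived-like cells is at 8.89 to 15.9 CPM with vehicle and 3.31 to 5.59 CPM with ginkgetin, while Nqo1 of endothelial-like cells is at 3.67 to 6.69 and 9.47 to 16.9 CPM.

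Nfe2l2 was at 172, 197 and 315 CPM in vehicle and 211, 150.5 and 273 CPM in ginkgetin macrophage-like cells, and at 211, 234 and 317 CPM against 243, 209 and 264 CPM in endothelial-like cells. Replicate 3 was the highest of each group in both classes, and the groups overlapped in all 10 classes. The log2 difference was -0.43 ± 0.27 in macrophage-like and -0.22 ± 0.18 in endothelial-like cells (SE; edgeR adjusted p 0.348 and 0.640).

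Over all 10 classes, including the pairs described above, Nfe2l2 had a log2 fold from -0.43 in macrophage-like to 0.51 in hepatocyte-like cells, above 0 in 5 and below 0 in 5 (edgeR adjusted p 0.348 to 0.974). The hepatocyte-like ginkgetin libraries stood at 0 and 91.1 CPM, and without the higher one this fold changed sign. Gclm was below 0 in all 9 classes tested, from -0.50 in NK cell-like to -0.19 in B cell-like cells (0.177 to 0.823). Gclc was above 0 in 7 of 8 and Txnrd1 in 5 of 9 classes, with lowest folds of -0.17 in T cell-like and -0.89 in dendritic-like cells. Gpx4 was above 0 in 8 of 10 classes, from -0.85 in hepatocyte-like to 0.55 in endothelial-like cells (0.444 to 0.993), but without vehicle replicate 1, described next, it was above 0 in 3 and below 0 in 7.

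Gpx4, the peroxidase that reduces lipid peroxides in membranes, was set apart by 1 library. In vehicle replicate 1 it was the lowest of all libraries in 12 of 12 classes and sub-classes, and the mean of the other libraries was 2.78 to 4.45 times higher. Over all named classes it was at 112 CPM in that library and at 378 to 523 CPM in the other 5. Macrophage-like cells held 99.7, 378 and 314 CPM with vehicle and 349, 482 and 389 CPM with ginkgetin. The difference of 0.32 ± 0.46 (SE; edgeR adjusted p 0.691) became -0.053 without vehicle replicate 1 (0.954).

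In endothelial-like cells, with 167, 603 and 434 CPM against 636, 717 and 586 CPM, it was 0.55 ± 0.45 and became 0.20 without that library (SE; edgeR adjusted p 0.648 and 0.945). GC makes up 60.2% of the longest coding transcript of Gpx4, more than in 95.6% of genes. Among 2242 genes of at least 50 CPM in T cell-like cells, Gpx4 had the 33rd lowest ratio of vehicle replicate 1 to the other vehicle libraries. The tenth of those genes with the highest GC had a median log2 ratio of -0.13 in that library and the tenth with the lowest GC had -0.046, and the part of base composition in the low Gpx4 count was not tested.

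**Figure D5:**
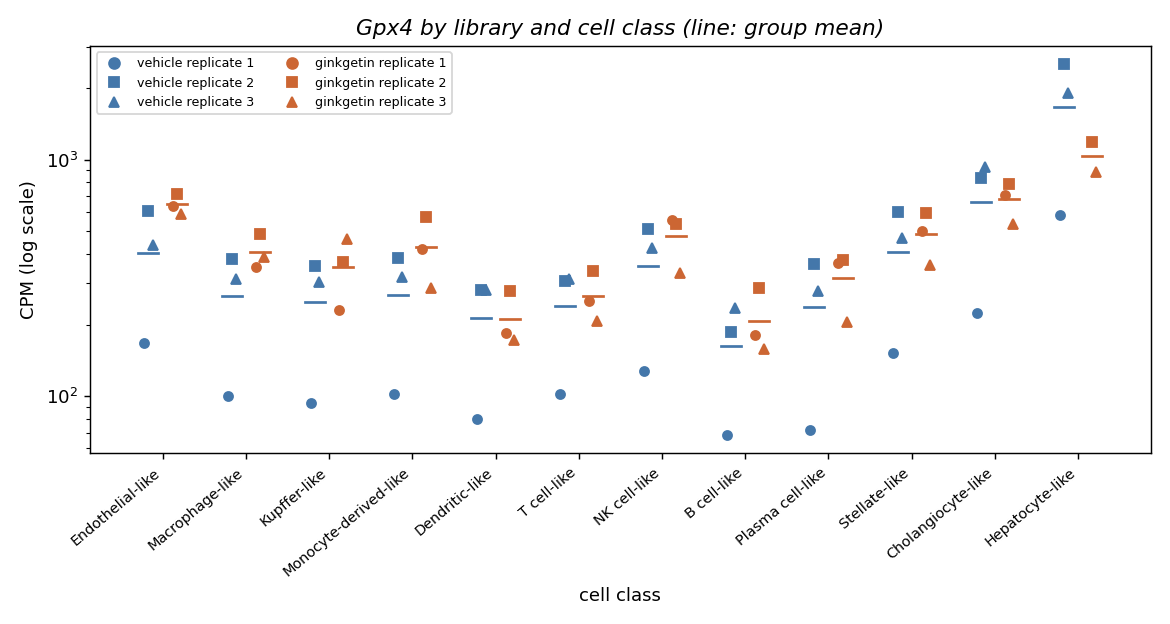
Gpx4 in CPM (log scale) for each library in each class, with vehicle libraries in blue, ginkgetin libraries in orange, symbols for replicates 1 to 3 and a line at each group's mean. Vehicle replicate 1 (blue circle) is the lowest point in every class, between 68.5 CPM in B cell-like and 584 CPM in hepatocyte-like cells.

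The 5 other lists of the same pathways are given for comparison, each counted as genes passing higher and lower. Of 12 regulators of NRF2, all tested, 0 were higher and 1 lower in macrophage-like cells, 2 were higher and 2 lower in Kupffer-like cells, and 0 and 1 in endothelial-like cells. With the replicate block these counts were 1 and 2, 2 and 2, and 0 and 2. Without the block the median log2 fold of the list was 0.23, 0.22 and 0.087 in these 3 classes, beside 0.0090, 0.029 and -0.0062 over all genes tested in each. Maff, a small MAF partner, was the regulator lower in all 3, at 9.71, 14.9 and 17.7 CPM with vehicle and 4.18, 4.83 and 3.67 CPM with ginkgetin in macrophage-like cells (-2.13 ± 0.35, SE; edgeR adjusted p 0.0158). In endothelial-like cells it went from 23.4, 7.37 and 27.8 CPM to 3.38, 3.19 and 2.71 CPM (-2.84 ± 0.44, SE; adjusted p 0.0359), and in Kupffer-like cells the fold was -1.66 (adjusted p 0.0237).

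Kupffer-like cells also had more Bach2 and Mafk and less Rbx1, a subunit of the KEAP1 ligase. Bach2, of a family of repressors that compete with NRF2 for its elements, was at 3.16, 3.28 and 4.73 CPM with vehicle and 7.32, 30.5 and 27.0 CPM with ginkgetin (2.19 ± 0.39, SE; edgeR adjusted p 0.0111). Mafk had a fold of 0.89 and Rbx1 one of -1.11 (adjusted p 0.0413 and 0.0484).

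Among 30 other NRF2 targets, 25 were tested in macrophage-like cells, and 2 passed higher and 2 lower. Gstm2, a glutathione transferase, and Abcc4, an efflux pump, were higher (2.35 and 1.31 on the log2 scale), while Cbr1, a carbonyl reductase, and Blvrb, biliverdin reductase B of haem breakdown, were lower (-1.52 and -1.09). Blvrb had 524, 442 and 436 CPM with vehicle and 280.3, 256 and 282 CPM with ginkgetin. In Kupffer-like cells 1 of 25 was higher (Gstm2, 2.71) and 3 were lower (Cbr1 -1.48, Blvrb -1.31 and Taldo1, a pentose phosphate enzyme, -0.88), and in endothelial-like cells 0 of 24 passed. With the replicate block the counts were 2 and 4 in macrophage-like, 2 and 8 in Kupffer-like and 3 and 2 in endothelial-like cells. The median log2 fold in these classes was 0.029, 0.053 and -0.062 without the block and 0.012, -0.075 and -0.064 with it. The block called 21.7%, 26.3% and 12.7% of all genes in these 3 classes, which is the background of every blocked list count given here.

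Of 17 other antioxidant enzymes, 0 were higher and 1 lower in macrophage-like cells (17 tested), 0 and 4 in Kupffer-like cells (16 tested) and 0 and 0 in endothelial-like cells (16 tested). The lower ones shown by size in Kupffer-like cells were Glrx, a glutaredoxin (-1.58), Prdx4, the peroxiredoxin of the endoplasmic reticulum (-1.57), and Txnrd2, the mitochondrial thioredoxin reductase (-1.36), and Txnrd2 was also the one in macrophage-like cells (-0.90). The median log2 fold of the list was -0.26 in macrophage-like, -0.62 in Kupffer-like and -0.40 in endothelial-like cells. The replicate block gave 0 and 5, 1 and 6, and 0 and 4 in the same order of classes.

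Of 16 genes that promote ferroptosis or handle iron, 14 were tested in macrophage-like cells, with 2 higher and 0 lower, 13 in Kupffer-like cells, with 1 and 0, and 10 in endothelial-like cells, with 1 and 0. Tfrc, the transferrin receptor, was at 12.6, 12.2 and 21.7 CPM in vehicle and 51.2, 59.1 and 76.4 CPM in ginkgetin Kupffer-like cells (1.59 ± 0.24, SE; edgeR adjusted p 0.00705), and it passed in all 6 fits that left out 1 library. Bach2 of Kupffer-like cells passed in 5 of 6 such fits, and each other gene named from these lists in 0 to 3 of them. In macrophage-like cells Tfrc had a fold of 1.56 and Alox5, a lipoxygenase, one of 2.22 (adjusted p 0.0173 and 0.0293), and in endothelial-like cells the lipoxygenase Alox12 was higher (1.63, adjusted p 0.0297). These counts were 2 and 1, 1 and 1, and 2 and 3 with the replicate block. The medians of the list were -0.028, 0.16 and -0.20 without the block and -0.092, -0.081 and -0.21 with it.

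Of 15 other ferroptosis defence genes, 0 were higher and 1 lower in macrophage-like cells (13 tested; Nfs1, a cysteine desulfurase, -0.89), 0 and 2 in Kupffer-like cells (11 tested; Scd1, which makes monounsaturated fatty acids, -1.11, and Gch1, which makes tetrahydrobiopterin, -0.96), and 0 and 0 in endothelial-like cells (12 tested), or 0 and 2, 1 and 3, and 1 and 0 with the replicate block. Without the block the medians of this list were -0.19, -0.36 and -0.26. In macrophage-like cells, where 5.14% of all genes passed higher and 4.16% lower, and in Kupffer-like cells, where 7.45% and 7.29% did, nothing is called particular to a list. Endothelial-like cells had 0.512% of genes higher and 0.866% lower. The endothelial transcripts, depth, sub-clusters and mix of sub-classes given above for Kupffer-like and macrophage-like cells moved with each of these lists. So did the clusters and macrophage transcripts given for endothelial-like cells. The part of all of these was not tested.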

How the data were processed

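The authors deposited 6 tables of unnormalized UMI counts, with a row per gene and a column per cell barcode. GRCm38 (mm10) is named in the submitters' processing notes, and the aligner, its annotation and any removal of doublets are not given in the sources used here. The study states a filter of 250 to 5000 UMIs per cell and under 5% mitochondrial UMIs. Here the range was applied to genes detected, which kept 27544 cells, and the UMI reading, which kept 16821, was an alternative. Every deposited barcode had at least 501 genes.

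In scanpy 1.11.5 (python 3.11.15) each cell was scaled to 10000 counts before a log transform, and 2000 variable genes, 30 principal components, 15 neighbours and Leiden resolution 1 (0.5 for macrophage-like cells) gave clusters. They were named from marker lists, with a marker counted at a UMI in 25% of cells and a mean 2 times that of other cells, and 3 such markers needed. The naming thresholds were set after seeing the data, and 2 clusters led by cell-cycle genes (432 cells) stayed unnamed. Scrublet called 0.0286% to 0.192% of cells and its calls were not used.

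Counts were summed per library and class with 10 or more cells, and fitted in edgeR 4.0.16 under R 4.3.3 by its quasi-likelihood test with group as the only term, after filterByExpr and TMM scaling, with Benjamini-Hochberg adjustment over all genes of the class and calls at 0.05. Classes were set against each other with a library block. Same-numbered libraries deviated together from their group means in the 11 classes and sub-classes checked (correlation 0.125 to 0.756). Hepatocyte-like cells were not checked. In 5 of 33 comparisons, all of replicate 2, another number correlated better. The libraries of replicate 3 differ from the others in barcode set, which alone could make numbers correlate. The check therefore cannot show that replicate numbers pair the samples. The blocked fit is given where it changes a member's call. DESeq2 1.42.0, no gene filter, a barcode-set block, replicates 1 and 2 alone, doublet removal, other clustering genes and left-out libraries were alternatives. On simulated counts, edgeR recovered 41.4% of 2-fold and 97% of 4-fold changes in macrophage-like sums of 10528 genes, and 43.4% and 100% in endothelial-like sums of 10165 genes, so a missed call at these sizes is common for the smaller change. Floors for a count of 0 use 3 counts. Plots were drawn with matplotlib 3.10.9.

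The members and the lists were chosen with earlier results of these data known. Named genes are all 10 members in the classes tested, with pairs that passed in no fit largely given as ranges, up to 3 called genes of largest rise and fall per list in macrophage-like, Kupffer-like and endothelial-like cells, and the 2 genes most like each member, except for Slc7a11 and Gpx4, where the second gene is not reported here. Promoter windows came from RefSeq, with no window used here for Gclc.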

Additional observations from a re-analysis of the deposited data

Results flagged for a closer look

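The group difference of Srxn1 differed between macrophage-like and endothelial-like cells by the test of that difference itself (-1.65 ± 0.33 on the log2 scale, SE, macrophage-like minus endothelial-like; edgeR adjusted p 0.0114). It was lower by mean in ginkgetin macrophage-like cells (8.92 ± 7.42 against 15.6 ± 3.24 CPM, SD, n = 3) and higher by mean in ginkgetin endothelial-like cells (18.4 ± 7.34 against 10.7 ± 3.99 CPM). Ginkgetin macrophage-like sums held 2, 13 and 55 Srxn1 UMIs, and the part of these low counts in the result was not tested. Of the 10 members 1 passed this test, beside 6.78% of all genes.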

How the results depend on the processing

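The count of member and class pairs passing over the 10 classes was 2, and was 1 when a fold over 2 was also asked, 10 with the replicate block, 11 with the barcode-set block (beside 7.53% of all pairs) and 0 to 1 with 1 library left out. For macrophage-like cells it was 2, 1 with that fold and 0 to 1 with 1 library left out. For Kupffer-like cells it was 2, 0 with 250 to 5000 UMIs per cell (beside 3.3% of genes), 1 with all gene symbols kept (added after seeing the data, beside 9.8%) and 0 to 2 with 1 library left out. For endothelial-like cells it was 0, 1 with the barcode-set block (Gclc, beside 14.9% of genes) and 1 with replicates 1 and 2 alone (Prdx1, beside 7.48%). The count of members whose group effect differed between classes was 1, 2 with DESeq2 (beside 5.82% of genes), 3 with no gene filter (7.66%), 2 with the replicate block (9.75%) and 2 with replicates 1 and 2 alone (5.66%). With 250 to 5000 UMIs per cell it was 1 (4.29%), Acsl4 in place of Srxn1, whose difference was then -1.89 (edgeR adjusted p 0.0531). The causes were not tested. Of 746 recomputed log2 fold changes of the 48 results named most in the text, 12 changed sign. With 250 to 5000 UMIs per cell these were Txnrd1 in macrophage-like (0.064), Gclc in Kupffer-like (-0.25) and T cell-like (0.039) and Prdx1 in stellate-like cells (0.041). With replicates 1 and 2 alone Gclm in B cell-like cells was 0.086 and Gclc in T cell-like cells 0.0039. Slc7a11 in macrophage-like cells was 0.095 with replicates 1 and 2 alone, and -2.70 and past the threshold with 250 to 5000 UMIs per cell. With 1 library left out, Gpx4 in macrophage-like cells was -0.053 (without vehicle replicate 1) to 0.74, Txnrd1 in Kupffer-like cells -0.63 to 0.035 (without vehicle replicate 3) and Prdx1 in stellate-like cells -0.21 to 0.040, Gclm in B cell-like cells -0.35 to 0.012 and Nfe2l2 in hepatocyte-like cells -7.38 to 0.75 (each changing sign without ginkgetin replicate 3). The -7.38 rests on 1 ginkgetin library with 0 Nfe2l2 UMIs and depends on the prior count. Over all 89 pairs of member and class or sub-class, 63 of 1379 recomputed values changed sign, 20 of them of Gpx4. Of the 746, a further 33 passed no longer, 32 passed anew and 669 kept direction and side. Of 200 recomputed class levels, 14 moved by more than 1 SD, all with 250 to 5000 UMIs per cell. Low counts limit Nqo1, Slc7a11 and Srxn1 most.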
